A study of Mus musculus with 6 samples.

Results

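The genes described here are those of the acinar digestive enzymes and the zymogen granule, 36 of the 54735 gene symbols in the count tables. They were listed by name, from what is known of the secretory products of the exocrine pancreas, with earlier results of these data known: 7 trypsinogens, 3 chymotrypsinogens, 4 elastases, 2 carboxypeptidases and 1 kallikrein (17 proteases), 6 genes of fat digestion, 2 amylases, 1 ribonuclease and 10 other genes, which were 2 Reg lectins, 5 granule proteins, 2 protease inhibitors and 1 endoplasmic reticulum protein. Total RNA was sequenced from whole pancreas of mouse embryos at e16.5, from 6 libraries on a mixed C57Bl6/129SV background. The 3 control libraries carried Neurog3:cre alone, and the other 3 carried Neurog3:cre together with RARdnfl/fl and are called RARdn here, so that every library carried the Cre transgene. RARdn is a dominant negative retinoic acid receptor that Cre activates, and Neurog3 is expressed in the endocrine progenitors of the pancreas. The Cre driver in this model is thus one of the endocrine lineage, and whether Cre also acted in any acinar cells was not tested here. No group carried RARdnfl/fl without Cre, and nothing in the labels tells whether any embryos were littermates or dissected together, so the p-values below measure the spread between these libraries, which may partly be technical. The tables held 35256531 to 52015498 reads counted in genes per library.

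Acinar cells make up most of the exocrine pancreas and synthesize digestive enzymes on the rough endoplasmic reticulum. Proteases, phospholipase and colipase are stored in zymogen granules as inactive precursors, whereas amylase, lipases and ribonuclease are made in active form. The granules are released by exocytosis when cholecystokinin or acetylcholine raises cytosolic calcium, and in the gut enteropeptidase cleaves trypsinogen to trypsin, which in turn activates the other proenzymes. Transcription of the enzyme genes in acinar cells depends on the PTF1 complex, in which Ptf1a binds an E-box and Rbpjl binds a nearby TC-box.

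Promoters of 28 of the 36 genes were in the RefSeq table for GRCm38.p6, and the 250 bases before each start were read for the 2 kinds of motif that the PTF1 complex binds, the E-box in the form CACCTG and the TC-box in the form TTTCCC, both on either strand. CACCTG was present in 17 of the 28 promoters (60.7%), against 17.1% of the 27025 promoters in the table. TTTCCC was present in 9 (32.1%), against 21.9%, and both motifs in 6 (21.4%), against 3.63%. The 6 with both were Cel, Cela1, Cela2a, Cela3a, Prss1 and Prss2. Another motif, TATAAA on either strand, was in 12 of the 28 (42.9%), against 12.97% of all promoters. Below are the promoters of 4 of the 6 genes whose share of the enzyme RNA differed without overlap between genotypes, each 5′ to 3′ on the gene's strand and ending at the base before the RefSeq start, with each CACCTG or TTTCCC match, on either strand, in capitals. They lie at chr8:111691011-111691260, minus strand (Ctrb1), chr2:28563404-28563653, minus strand (Cel), chr4:141826006-141826255, minus strand (Cela2a) and chr6:41035510-41035759, minus strand (2210010C04Rik).
Ctrb1: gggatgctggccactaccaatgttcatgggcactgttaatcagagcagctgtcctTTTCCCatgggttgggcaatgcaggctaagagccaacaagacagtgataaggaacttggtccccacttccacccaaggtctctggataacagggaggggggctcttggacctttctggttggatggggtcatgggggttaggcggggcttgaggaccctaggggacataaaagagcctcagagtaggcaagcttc
Cel: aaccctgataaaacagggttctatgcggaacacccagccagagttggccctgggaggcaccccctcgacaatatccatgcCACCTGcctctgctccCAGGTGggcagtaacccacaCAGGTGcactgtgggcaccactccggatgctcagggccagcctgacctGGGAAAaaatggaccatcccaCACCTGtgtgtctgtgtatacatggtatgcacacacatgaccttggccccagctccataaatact
Cela2a: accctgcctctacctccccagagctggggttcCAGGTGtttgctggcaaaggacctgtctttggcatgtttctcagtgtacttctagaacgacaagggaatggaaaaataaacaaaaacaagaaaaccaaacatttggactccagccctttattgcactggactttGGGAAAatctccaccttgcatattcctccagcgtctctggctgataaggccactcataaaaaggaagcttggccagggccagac
2210010C04Rik: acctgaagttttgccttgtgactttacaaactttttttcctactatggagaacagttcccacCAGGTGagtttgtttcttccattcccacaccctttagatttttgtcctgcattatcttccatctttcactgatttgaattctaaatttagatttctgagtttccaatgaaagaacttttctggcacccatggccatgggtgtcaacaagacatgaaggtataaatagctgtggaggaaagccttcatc
Cel held 4 matches of the E-box and 1 of the TC-box, and Cela2a held 1 of each. In 2210010C04Rik there was 1 E-box match and no TC-box match, and in Ctrb1 1 TC-box match and no E-box match. Promoters of the other 2 of these genes, Rnase1 and Pla2g1b, held neither motif in this window. A match describes the letters of the window and is not evidence that a factor binds there.

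The genes lie on many chromosomes, with 11 on chromosome 6 and 6 on chromosome 7 (GRCm38, GENCODE M21 annotation). All 7 trypsinogens sit on chromosome 6, from 2210010C04Rik (41030268 to 41035509) to Prss2 (41521787 to 41525079). Of the 50-base windows in the longest transcript, 54.9% for Prss1, 66.1% for Prss3, 65.6% for Try4, 53.9% for Try5, 40.8% for Try10 and 7.83% for Prss2 also occur in another gene, so the single values of these 6 are uncertain, while 2210010C04Rik has none. The same holds for Amy2b (40.2%), Cela3a (34.2%), Klk1 (28.4%), Cela2a (25.6%), Cela3b (10.1%), Reg1 (3.74%) and Amy1 (2.69%), and 23 of the 36 genes have no such window. Exons of Cela2a and Ctrc overlap each other and Casp9, and those of Amy1 overlap Rnpc3, and the strand setting of the counting is not given in the sources used here. GENCODE M21 annotates Amy2b (chromosome 3, 113147656 to 113156727) as an unprocessed pseudogene and RefSeq as protein coding, so its own level is uncertain too.

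Enzyme and granule RNA took up a large part of every library and varied far more among the RARdn pancreata than among the controls. Of the counts in genes, the 36 genes together held 19.0%, 17.5% and 18.5% across controls 1 to 3, against 7.15%, 22.3% and 26.8% across RARdn 1 to 3. RARdn 1 lay below all 3 controls and RARdn 2 and 3 above them, so the groups overlapped. Means were 18.3% ± 0.749 for controls against 18.7% ± 10.3 for RARdn (SD, n = 3 in each), a difference of 0.412 percentage points (2-sided exact permutation test, p = 1.0, where 3 against 3 libraries cannot go below 0.1). The difference was 6.21 percentage points without RARdn 1 and turned to -1.36 without RARdn 2 and -3.61 without RARdn 3. RARdn 3 held 3.75 times the share of RARdn 1, whereas the highest control held 1.08 times the lowest. In bulk RNA, fewer acinar cells and less enzyme RNA per cell cannot be told apart.

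In each enzyme class RARdn 1 was the lowest library, and RARdn 2 and 3 were above every control. As a share of counts, proteases took 10.9%, 9.84% and 10.6% in the 3 controls, against 3.76%, 12.3% and 15.2% in RARdn 1 to 3 (exact permutation p = 1.0). As a share of counts, the genes of fat digestion took 7.30%, 7.09% and 7.20% in the 3 controls, against 3.04%, 8.54% and 10.1% in RARdn 1 to 3 (exact permutation p = 1.0). RARdn 3 was the highest library in both. Amylases took 0.164%, 0.180% and 0.227% in the 3 controls, against 0.0694%, 0.515% and 0.476% in RARdn 1 to 3 (exact permutation p = 0.4). Rnase1 alone took 0.235%, 0.124% and 0.188% in the 3 controls, against 0.120%, 0.437% and 0.641% in RARdn 1 to 3 (exact permutation p = 0.4). For Rnase1, RARdn 1 was only just below control 2. Across all 9 shares tested here and below, the Benjamini-Hochberg adjusted p was 0.72 or 1.0.

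**Figure D1:**
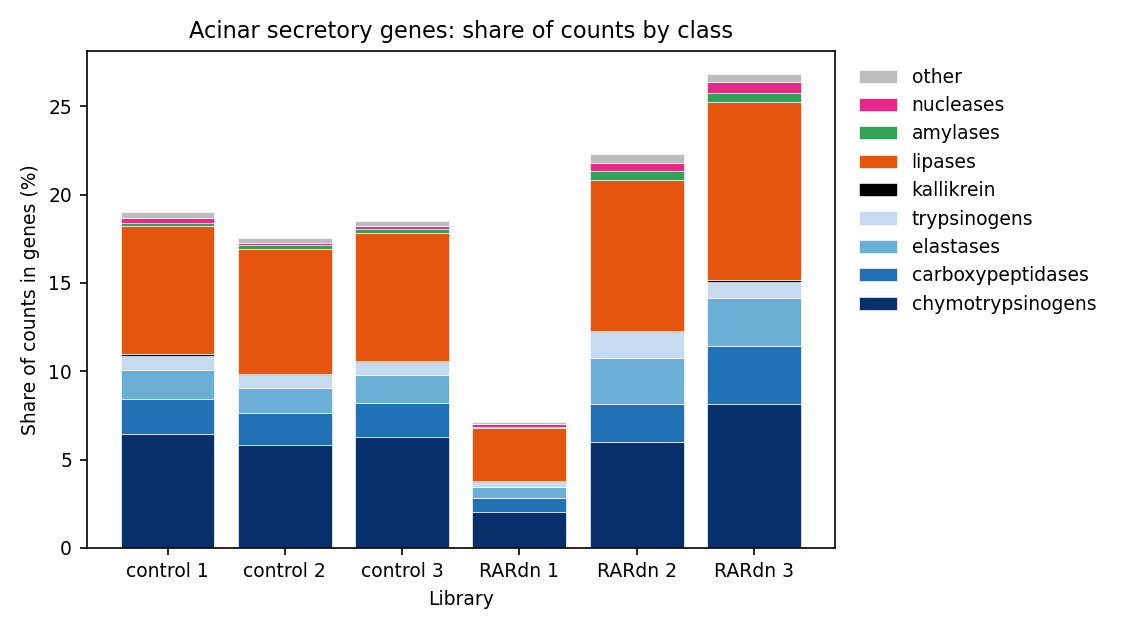
Share of all counts in genes (percent, vertical axis) held by each enzyme class, as 1 stacked bar for each of the 6 libraries (horizontal axis). The whole bar is 7.15% in RARdn 1, 17.5% to 19.0% in the controls and 22.3% and 26.8% in RARdn 2 and 3.

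RARdn 1 stood apart over the genes as a whole list as well. On the log2(CPM + 0.5) scale, where CPM stands for counts scaled to the library total, 32 of the 35 tested genes were below the control mean in RARdn 1 (median log2 difference -1.32), 30 of 35 were above it in RARdn 2 (median 0.62) and 30 of 35 in RARdn 3 (median 0.50). Over all 19070 genes tested the same medians were 0.27, -0.007 and -0.18. A gene's highest library over its lowest had a median of 1.34 across the 35 genes in controls and 4.76 in RARdn. Other RNAs also moved with these libraries: Alb (albumin), a liver gene, was at 1.15 to 2.93 CPM in the 3 controls, against 728, 134 and 2.75 CPM across RARdn 1 to 3. The 12 liver genes listed had sums of 395 to 415 CPM among controls, against 1991, 612 and 394 CPM across RARdn 1 to 3, most of it in controls from Ttr, which pancreatic endocrine cells also express. The other 11 had sums of 29.7 to 38.8 CPM among controls, against 1644, 302 and 31.001 CPM across RARdn, and Apoa2, Apob and Fga were at 0 in RARdn 3. The 13 mitochondrial genes listed summed to 23468 to 24569 CPM among controls, against 52308, 45404 and 23805 CPM across RARdn, and 14 mesenchymal genes to 5382 to 7229.8 CPM and 10822, 9833 and 7939.8 CPM. Mitochondrial ribosomal RNA, mt-Rnr1 and mt-Rnr2, summed to 1347 to 1492 CPM in controls and was lower in every RARdn library, at 1027, 969.7 and 379 CPM. Reads outside genes made up 7.60% to 8.99% of all reads in controls and 5.30%, 4.84% and 2.90% across RARdn, and unaligned reads 3.26% to 3.41% and 2.33% to 2.54%, both without overlap. The part of these RNAs and reads in the enzyme results was not tested. Salivary marker genes summed to no more than 41.9 CPM in any library, and 4 of the 9 in the tables were at 0 in all 6. Nearly all of this sum was Amy1, itself an enzyme gene described here, at 41.4 CPM in RARdn 3, the library with the highest sum.

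**Figure D2:**
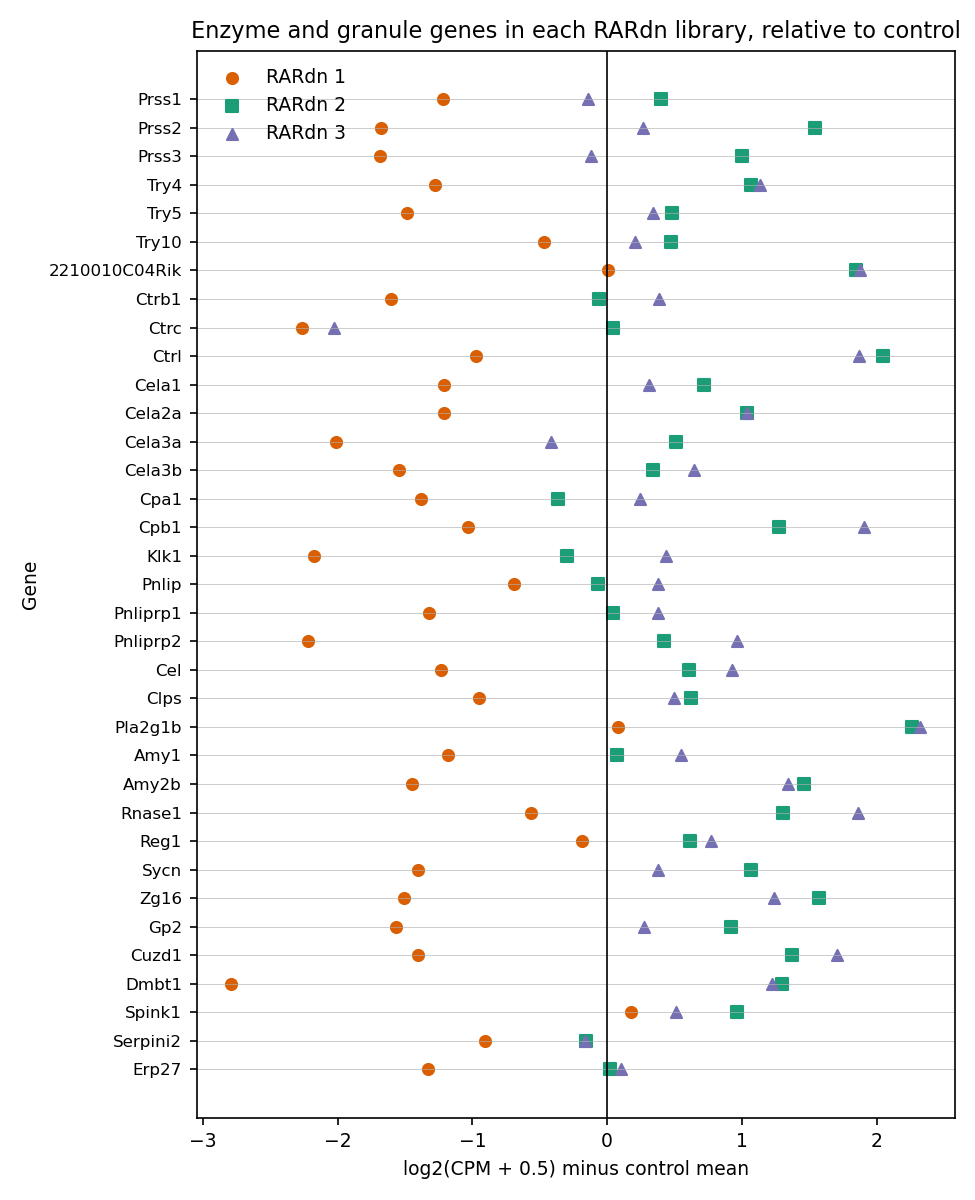
Level of each of the 35 tested genes in each RARdn library relative to the control mean, as a difference of log2(CPM + 0.5), grouped by role. In RARdn 1, 32 of 35 genes lie below 0, and in RARdn 2 and in RARdn 3, 30 of 35 lie above 0.

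No enzyme or granule gene passed the test between genotypes over all 6 libraries. By edgeR's quasi-likelihood test, 767 of 19070 genes (4.02%) were called at an adjusted p under 0.05, with 262 higher and 505 lower in RARdn, and 0 of the 35 enzyme and granule genes tested were among them. At an unadjusted p under 0.05 there were 2, 2210010C04Rik and Pla2g1b, and DESeq2 and limma-voom called 0. The share of all genes at that unadjusted cut is not given here, so nothing is read from this count or from those at the same cut below. Reg2, which encodes a secreted lectin, had 0 to 2 counts per library and was not tested. Of the 35 log2 fold changes, 25 were above 0 and 10 below, with a median of 0.26 beside 0.00051 over all genes. This lean depended on the setting. With limma-voom 17 were above 0 and 18 below (median -0.042). There were 18 above and 17 below without RARdn 2 (median 0.020), and 19 above and 16 below without RARdn 3 (median 0.018). Groups that do not overlap in CPM were found for 0 of the 35 and for 18.3% of all genes tested. RARdn 1 decided the number of genes called. Without it, which leaves only RARdn 2 and RARdn 3 against the controls, 12 of the 35 rose and none fell, beside 1.66% of 19736 genes that rose. In the labels' descriptions RARdn 2 and RARdn 3 share a leading number that RARdn 1 lacks, and its meaning is not given. The 12 were Try4, 2210010C04Rik, Ctrl, Cela2a, Cpb1, Pla2g1b, Amy2b, Rnase1, Zg16, Cuzd1, Dmbt1 and Spink1, and 33 of the 35 log2 fold changes were then above 0, with a median of 0.75. Leaving out any other library gave 0 calls among the 35 genes. With no filter on low counts, 2210010C04Rik and Pla2g1b rose in the fit to all 6 libraries, beside 3.31% of genes that rose.

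**Figure D3:**
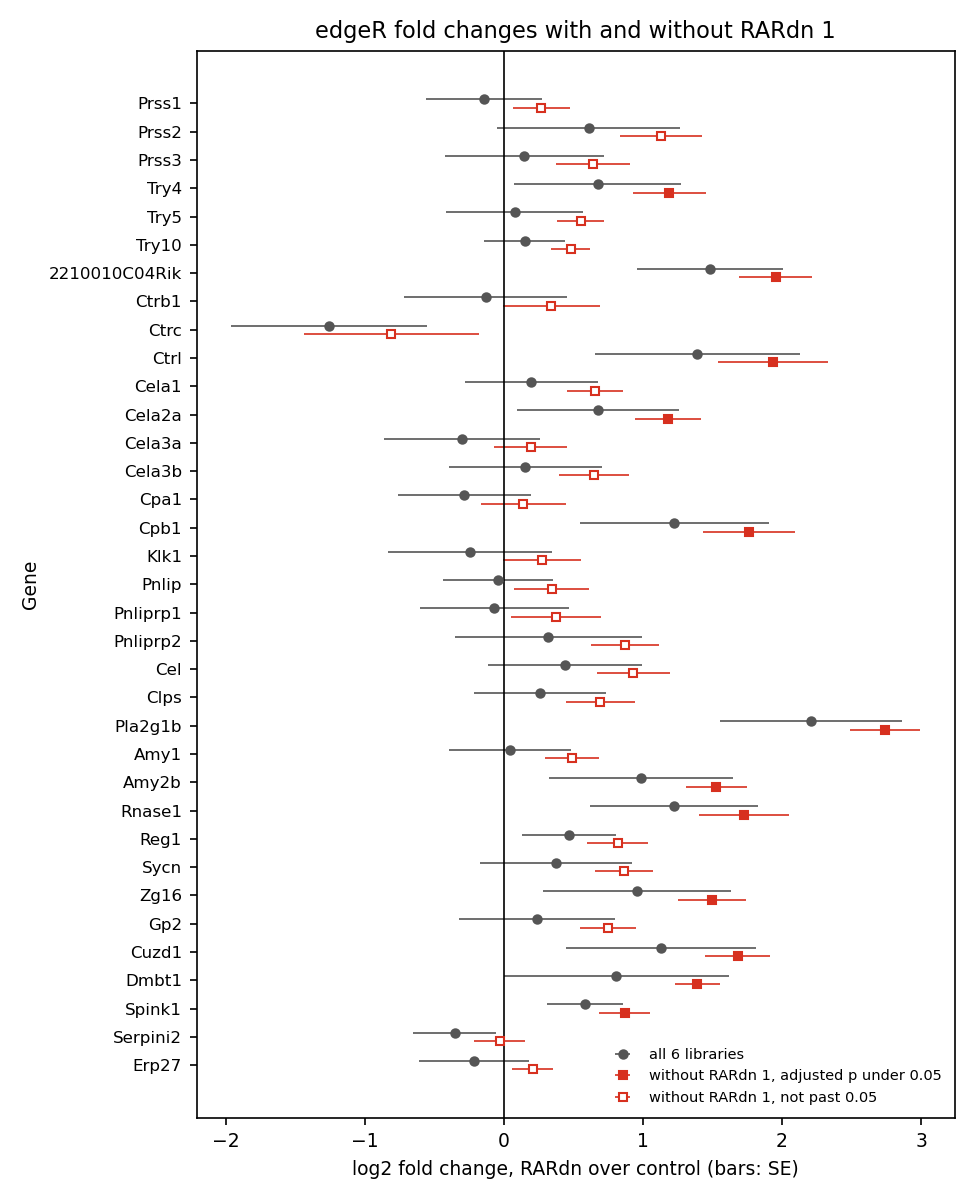
Log2 fold change of RARdn over control for the 35 tested genes from edgeR, with 1 SE, over all 6 libraries and again without RARdn 1. In the first fit 25 of 35 values lie above 0 and none passed the test, and in the second 33 of 35 lie above 0 and 12 passed.

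Trypsinogens are the precursors of trypsin, the protease that starts the activation cascade. Prss1, the highest of them by mean CPM over the 6 libraries though below Prss2 in the RARdn mean, was at 2590.2, 2167 and 2066 CPM across controls 1 to 3, against 973, 2982 and 2052 CPM across RARdn 1 to 3. RARdn 1 was far below every control, RARdn 3 just below and RARdn 2 above. The fit gave no call (log2 fold change -0.14, SE 0.42, adjusted p = 0.875), and without RARdn 1 neither did it (log2 0.27, SE 0.20, adjusted p = 0.481). 2210010C04Rik, listed with the trypsinogens, had a different order of libraries and was at 505, 304 and 559.7 CPM across controls 1 to 3, against 444, 1586 and 1619.9 CPM across RARdn 1 to 3. RARdn 2 and 3 were above every control, and RARdn 1 lay within the control range. The fit gave log2 fold change 1.48, SE 0.53, adjusted p = 0.147 with all libraries, and without RARdn 1 the gene rose (log2 1.95, SE 0.27, adjusted p = 0.0111). Counts of 2210010C04Rik per count of Prss1 were 0.195, 0.140 and 0.271 in the 3 controls, against 0.457, 0.532 and 0.790 in RARdn 1 to 3, higher in all 3 RARdn libraries than in any control (exact permutation p = 0.1). Try4 was at 114 to 228 CPM among controls and 64.2 to 343 CPM in RARdn and rose without RARdn 1 (log2 1.19, SE 0.26, adjusted p = 0.0469). Prss2, Prss3, Try5 and Try10 overlapped between groups, with Prss2 at 455 to 4248 CPM in RARdn as the widest of these ranges (controls 1315 to 1598 CPM).

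Chymotrypsinogens are the precursors of chymotrypsins, which cut proteins after large hydrophobic residues, and Ctrb1 had the highest level of the 36 genes, by CPM and by CPM per kilobase. Ctrb1 (ENSMUSG00000031957, chromosome 8, 111686519 to 111691010) was at 63929, 58226 and 62495 CPM across controls 1 to 3, against 20221, 58972 and 80465 CPM across RARdn 1 to 3. RARdn 1 was low, RARdn 2 was within the control range and RARdn 3 was above it. There was no call in either fit (log2 fold change -0.13, SE 0.59, adjusted p = 0.921, and without RARdn 1 log2 0.34, SE 0.35, adjusted p = 0.614). Ctrl, a chymotrypsin-like protease, was at 379.5, 164 and 126 CPM in the 3 controls, against 101, 821 and 727 CPM in RARdn 1 to 3 and rose without RARdn 1 (log2 1.94, SE 0.39, adjusted p = 0.0397). Among controls, Ctrl was highest in control 1. Ctrc, whose product in humans degrades trypsinogen, was at 9.31 to 37.7 CPM among controls and 4.30 to 23.2 CPM in RARdn, and its exons overlap those of Cela2a.

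Among the pancreatic elastases, Cela2a had the highest mean CPM. Cela2a (chromosome 4, 141814962 to 141826160) was at 7537, 7093 and 8076 CPM across controls 1 to 3, against 3272, 15558 and 15498 CPM across RARdn 1 to 3. RARdn 2 and 3 were alike and above every control, and RARdn 1 was below every control. It was not called over 6 libraries (log2 fold change 0.67, SE 0.58, adjusted p = 0.537) and rose without RARdn 1 (log2 1.18, SE 0.24, adjusted p = 0.0376). Cela3b was at 5110.2 to 6455 CPM among controls and 1900.1 to 8651 CPM in RARdn, Cela1 at 2188 to 2646 and 1014 to 3882 CPM, and Cela3a at 34.1 to 58.5 and 11.5 to 68.5 CPM, with no call for any of these 3 in either fit.

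Carboxypeptidases A and B remove residues from the carboxyl end of peptides, A preferring hydrophobic and B basic residues, and the RNAs of the 2 genes did not keep one ratio. Cpa1 (chromosome 6, 30639218 to 30645363), also a marker of the tip progenitors of the early pancreas, was at 14407, 14479 and 15658 CPM across controls 1 to 3, against 5688, 11514 and 17616 CPM across RARdn 1 to 3. RARdn 1 and 2 were below the controls and RARdn 3 above, with no call (log2 fold change -0.29, SE 0.48, adjusted p = 0.771, and without RARdn 1 log2 0.14, SE 0.31, adjusted p = 0.837). Cpb1 (chromosome 3, 20248264 to 20275733) was at 5431, 3344 and 3728 CPM across controls 1 to 3, against 1990.1, 9868 and 15316 CPM across RARdn 1 to 3, with RARdn 2 and 3 above every control, and rose without RARdn 1 (log2 1.76, SE 0.33, adjusted p = 0.0328). Counts of Cpb1 per count of Cpa1 were 0.377, 0.231 and 0.238 in the 3 controls, against 0.350, 0.857 and 0.869 in RARdn 1 to 3, where RARdn 1 lay within the control range (exact permutation p = 0.2). Klk1, a tissue kallikrein that releases kinins, was at 802, 628 and 545 CPM in the 3 controls, against 143, 529.6 and 881 CPM in RARdn 1 to 3 with no call (log2 fold change -0.24, SE 0.59, adjusted p = 0.847, and without RARdn 1 log2 0.27, SE 0.28, adjusted p = 0.617).

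Among the genes of fat digestion, the lipase-related Pnliprp1 was far above the classical lipase Pnlip at this age, at a control mean of 21962 against 1.29 CPM per kilobase of exon. Pnliprp1 (chromosome 19, 58728887 to 58744169), a homologue with little lipase activity in the assays used for Pnlip, was at 48629.8, 48304 and 49534 CPM across controls 1 to 3, against 19489.9, 50196 and 63375 CPM across RARdn 1 to 3. RARdn 2 was just above the controls, RARdn 3 further above and RARdn 1 below. It was not called (log2 fold change -0.069, SE 0.54, adjusted p = 0.953, and without RARdn 1 log2 0.37, SE 0.32, adjusted p = 0.545). Pnlip, the colipase-dependent triglyceride lipase, was at 2.66 to 3.16 CPM among controls and 1.56 to 3.83 CPM in RARdn, and Pnliprp2, which also hydrolyses phospholipids and galactolipids, at 559 to 739 and 131 to 1198 CPM. Clps, the colipase that anchors lipase to fat droplets in the presence of bile salts, was at 14660.3, 12375 and 12236 CPM in the 3 controls, against 6735, 20044 and 18421 CPM in RARdn 1 to 3. Cel, the bile salt-activated carboxyl ester lipase, was at 8954, 9693 and 9702 CPM in the 3 controls, against 4023, 14354 and 17980.2 CPM in RARdn 1 to 3. For Clps and Cel alike, RARdn 1 was below every control and RARdn 2 and 3 were above, with no call in either fit. Pla2g1b, the secreted pancreatic phospholipase A2, was a rare RNA at 2.02, 1.65 and 1.08 CPM across controls 1 to 3, against 1.67, 9.34 and 9.76 CPM across RARdn 1 to 3. RARdn 2 and 3 were above every control and RARdn 1 was within the control range. Its fit gave log2 fold change 2.21, SE 0.65, adjusted p = 0.0971 over 6 libraries, and without RARdn 1 it rose (log2 2.74, SE 0.25, adjusted p = 0.00206).

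Amylase cuts starch, and the amylase genes lie side by side on chromosome 3. Amy2b was at 1617, 1776 and 2237 CPM across controls 1 to 3, against 682, 5123 and 4716 CPM across RARdn 1 to 3. RARdn 2 and 3 exceeded every control and RARdn 1 was lowest, with no call over 6 libraries (log2 fold change 0.99, SE 0.66, adjusted p = 0.416), and the gene rose without RARdn 1 (log2 1.53, SE 0.22, adjusted p = 0.0146). Amy1, the salivary and liver form, was at 26.7 to 30.6 CPM among controls and 12.1 to 41.4 CPM in RARdn. With the 5 copies Amy2a1 to Amy2a5 added, a choice made after their values were seen, the amylase share of counts was 0.526%, 0.535% and 0.612% in the 3 controls, against 0.200%, 1.08% and 1.16% in RARdn 1 to 3 (exact permutation p = 0.4). Rnase1, the pancreatic ribonuclease (ENSMUSG00000035896, chromosome 14, 51144998 to 51146785), was at 2345, 1245 and 1885 CPM across controls 1 to 3, against 1196, 4373 and 6414 CPM across RARdn 1 to 3. RARdn 2 and 3 were above every control and RARdn 1 was lowest, close to control 2. It was not called over 6 libraries (log2 fold change 1.22, SE 0.60, adjusted p = 0.275) and rose without RARdn 1 (log2 1.73, SE 0.33, adjusted p = 0.0335).

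For all 5 proteins of the granule itself, RARdn 1 was the lowest library and RARdn 2 and 3 were above every control. Sycn (syncollin, a protein of the inner face of the granule membrane) was at 843, 618 and 644 CPM in the 3 controls, against 263, 1454 and 902 CPM in RARdn 1 to 3, with no call (log2 fold change 0.37, SE 0.54, adjusted p = 0.733, and without RARdn 1 log2 0.87, SE 0.21, adjusted p = 0.0559). Zg16, a lectin-like granule protein, was at 558, 337 and 319 CPM in the 3 controls, against 138, 1164 and 923 CPM in RARdn 1 to 3 and rose without RARdn 1 (log2 1.5, SE 0.24, adjusted p = 0.0226). RARdn 2 was the highest library for both genes. Cuzd1, a CUB and zona pellucida domain protein of the granule membrane, was at 53.1, 33.8 and 32.2 CPM in the 3 controls, against 14.3, 101 and 127 CPM in RARdn 1 to 3 and rose without RARdn 1 (log2 1.68, SE 0.23, adjusted p = 0.0125). Dmbt1, a scavenger receptor cysteine-rich glycoprotein, was at 195, 157 and 142 CPM in the 3 controls, against 23.1, 401 and 381 CPM in RARdn 1 to 3 and rose without RARdn 1 (log2 1.39, SE 0.16, adjusted p = 0.00637). Dmbt1 had the widest spread of the RARdn libraries among the tested genes, its highest value being 17.3 times its lowest. Gp2, the main glycoprotein of the granule membrane, was at 13.4 to 21.4 CPM among controls and 5.65 to 34.1 CPM in RARdn. Reg1, a secreted C-type lectin, was at 409.7, 325 and 246 CPM in the 3 controls, against 281, 491 and 546 CPM in RARdn 1 to 3 with overlapping groups and no call (log2 fold change 0.47, SE 0.34, adjusted p = 0.458, and without RARdn 1 log2 0.82, SE 0.22, adjusted p = 0.0705).

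Among the RARdn libraries, the highest over the lowest was 1.72 for Spink1, 1.68 for Serpini2 and 2.70 for Erp27, all under the median of 4.76 given above. Spink1, the trypsin inhibitor of the granule, was at 464, 351 and 336 CPM in the 3 controls, against 431, 740.1 and 543 CPM in RARdn 1 to 3. RARdn 1 lay within the control range for Spink1 and RARdn 2 and 3 lay above it. Spink1 rose without RARdn 1 (log2 0.87, SE 0.18, adjusted p = 0.0415). Serpini2, a serpin also called pancpin, was at 560.4, 638 and 749.7 CPM in the 3 controls, against 344, 578 and 575 CPM in RARdn 1 to 3, with no call (log2 fold change -0.35, SE 0.30, adjusted p = 0.528, and without RARdn 1 log2 -0.030, SE 0.18, adjusted p = 0.947). Counts of Spink1 per count of Serpini2 were 0.828, 0.550 and 0.449 in the 3 controls, against 1.25, 1.28 and 0.944 in RARdn 1 to 3, higher in all 3 RARdn libraries than in any control (exact permutation p = 0.1). Erp27, a non-catalytic member of the protein disulphide isomerase family, was at 334, 314 and 288 CPM in the 3 controls, against 124, 315 and 334 CPM in RARdn 1 to 3, with no call (log2 fold change -0.22, SE 0.40, adjusted p = 0.792, and without RARdn 1 log2 0.21, SE 0.15, adjusted p = 0.461).

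Shares within the 36 genes remove the difference in total enzyme RNA between libraries, and 6 of the 35 tested genes differed in share without overlap between the groups. Of the enzyme and granule counts, Ctrb1 held 33.7%, 33.2% and 33.8% in the 3 controls, against 28.3%, 26.4% and 30.0% in RARdn 1 to 3, lower in every RARdn library than in any control. It was the 1 gene of 35 that was lower without overlap, beside 2.2% of all 19070 genes when each was counted per enzyme and granule count. Higher without overlap were 5 of the 35, beside 1.52% of all genes. Nothing is read from these counts of genes or from the background shares. Dividing by the enzyme and granule sum puts its spread among the RARdn libraries into every gene that does not follow it. Under random labels, 3 against 3 libraries would also separate with a probability of 0.1 for each gene. Rnase1 held 1.23%, 0.710% and 1.02% in the 3 controls, against 1.67%, 1.96% and 2.39% in RARdn 1 to 3. 2210010C04Rik held 0.266%, 0.174% and 0.303% in the 3 controls, against 0.622%, 0.711% and 0.604% in RARdn 1 to 3. In both genes all 3 RARdn libraries, RARdn 1 included, were above the highest control. Cela2a held 3.97%, 4.05% and 4.37% in the 3 controls, against 4.58%, 6.98% and 5.78% in RARdn 1 to 3, and Cel 4.71%, 5.53% and 5.24% in the 3 controls, against 5.63%, 6.44% and 6.71% in RARdn 1 to 3. Pla2g1b, the last of the 5, had a mean share 3.92 times that of controls. These shares sum to a whole and are not independent of each other. In edgeR with libraries scaled to the sum of the 36 genes, 0 of the 35 were called and 1 had an unadjusted p under 0.05, with a lowest adjusted p of 0.876.

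Among the classes, Rnase1 as the nuclease class had means of 0.988% ± 0.264 for controls against 2.01% ± 0.363 for RARdn (SD, n = 3 in each, exact permutation p = 0.1, adjusted p = 0.72). Proteases held 57.1% ± 0.775 for controls against 54.7% ± 2.0 for RARdn (exact permutation p = 0.2), lipases 39.3% ± 1.07 for controls against 39.5% ± 2.62 for RARdn (exact permutation p = 1.0) and amylases 1.04% ± 0.180 for controls against 1.69% ± 0.675 for RARdn (exact permutation p = 0.3). Divided by the annotated exon length of each gene, the protease share was 64.4% ± 0.601 for controls against 59.5% ± 2.28 for RARdn, and all 3 RARdn libraries were lower than every control (exact permutation p = 0.1). With Ctrb1 left out, a choice made after its values were seen, the difference in protease share by counts turned from -2.33 to 1.52 percentage points. Among the proteases, chymotrypsinogens held 33.9%, 33.3% and 33.9% in the 3 controls, against 28.4%, 26.8% and 30.3% in RARdn 1 to 3, and elastases 8.57%, 8.28% and 8.59% in the 3 controls, against 8.67%, 11.9% and 10.1% in RARdn 1 to 3. Every RARdn library was below the controls for chymotrypsinogens and above them for elastases, with RARdn 1 close to the controls for elastases. Counts of Cela2a per count of Ctrb1 were 0.118, 0.122 and 0.129 in the 3 controls, against 0.162, 0.264 and 0.193 in RARdn 1 to 3, those of Rnase1 per count of Ctrb1 0.0367, 0.0214 and 0.0302 in the 3 controls, against 0.0591, 0.0742 and 0.0797 in RARdn 1 to 3, and those of Cel per count of Pnliprp1 0.184, 0.201 and 0.196 in the 3 controls, against 0.206, 0.286 and 0.284 in RARdn 1 to 3. Each of these 3 ratios was higher in all RARdn libraries than in any control (exact permutation p = 0.1 in all cases, the lowest possible). In all, 10 such ratios were computed. Those of Ctrl per Ctrb1, Clps per Pnliprp1, Cpb1 per Cpa1 and Ptf1a per Ctrb1 overlapped between groups. Cela2a, Rnase1, Cel and Ctrb1 are among the genes given above for shares without overlap. The 3 ratios therefore restate those shares and are no separate support for them.

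**Figure D4:**
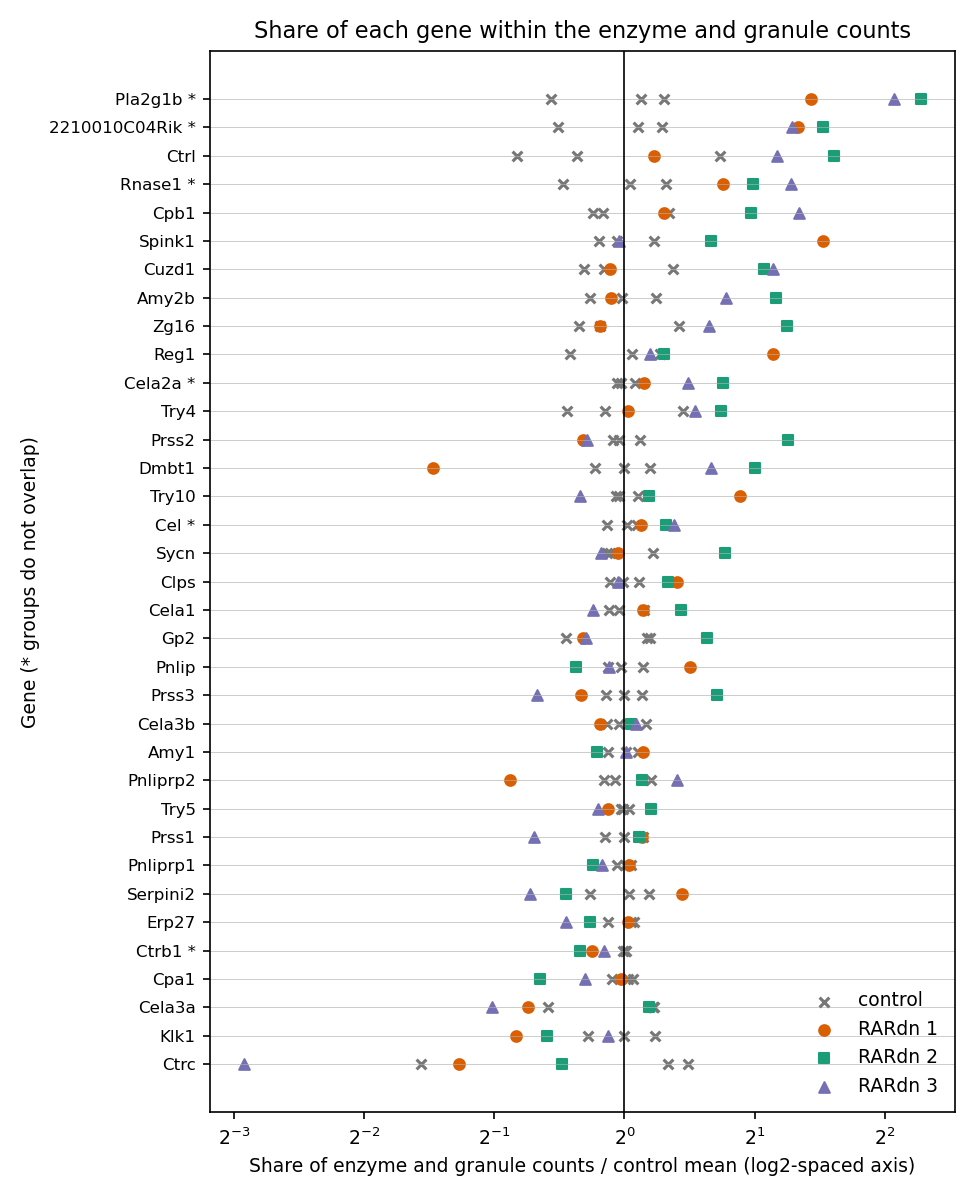
Share of the enzyme and granule counts held by each of the 35 tested genes, divided by the control mean, on a log axis, with 1 point for each of the 3 control and 3 RARdn libraries and a star where the groups do not overlap. Of these genes, 5 are higher and 1, Ctrb1, is lower in all 3 RARdn libraries than in any control.

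Levels per kilobase of exon allow the genes to be ranked against each other. In controls the order by mean CPM per kilobase was Ctrb1 (70103 ± 3379, SD, n = 3), Pnliprp1 (21962 ± 287), Clps (21425 ± 2228) and Cpa1 (8485 ± 402). Pnliprp1 and Clps did not differ beyond their spread in controls, and neither did Cel and Cela2a, the next 2 genes. Of the enzyme and granule counts, Ctrb1 and Pnliprp1 together made up 59.3%, 60.8% and 60.6% in the 3 controls, against 55.6%, 49.0% and 53.7% in RARdn 1 to 3, lower in every RARdn library than in any control. Rnase1 was ninth in controls and seventh in RARdn by mean CPM per kilobase, and Cpb1 thirteenth and ninth.

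Transcription factors of the acinar programme spread less among the RARdn libraries than the enzymes did. Of 11 acinar transcription factors, 0 were called by edgeR, DESeq2 or limma-voom and 1 had an unadjusted p under 0.05 in edgeR, with a median log2 fold change of -0.22, beside shares called over all genes of 4.02% in edgeR, 10.2% in DESeq2 and 4.17% in limma-voom. Ptf1a was at 46.5, 52.4 and 54.0 CPM in the 3 controls, against 34.8, 44.0 and 51.2 CPM in RARdn 1 to 3, and Rbpjl at 1433, 1678 and 1636 CPM in the 3 controls, against 1433, 1459 and 1119.6 CPM in RARdn 1 to 3. Bhlha15 (Mist1), which maintains the secretory architecture of acinar cells, was at 427, 520.1 and 547 CPM in the 3 controls, against 341, 297 and 533 CPM in RARdn 1 to 3. Their 11 levels summed to 2944 to 3396 CPM among controls and 2728 to 2832 CPM in RARdn, lower without overlap, but after TMM scaling, edgeR's correction for library composition, the sums were 2962 to 3454 and 2318 to 3228 CPM and overlapped. For every 1000 enzyme and granule counts, transcription factor counts numbered 15.5, 19.4 and 18.2 in the 3 controls, against 39.6, 12.2 and 10.4 in RARdn 1 to 3. RARdn 1 had the most transcription factor RNA for its enzyme RNA, and RARdn 2 and 3 the least. With factor sums this close among the RARdn libraries, the order mainly restates that of the enzyme share and is no separate result. Rbpjl had the highest level of the 11 factors and weighed heavily in their sum.

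Genes that sense secretagogues, fill and release granules, or fold and export secretory proteins were not called by edgeR over 6 libraries, beside the same shares called over all genes. Those shares are at an adjusted p, and the counts at an unadjusted p have no share over all genes beside them. Of 14 genes of secretagogue signalling, such as the cholecystokinin receptor Cckar, 0 were called (4 at an unadjusted p under 0.05, and 1 called by DESeq2, Vipr1, and 0 by limma-voom). Cckar was at 972, 1088 and 1128 CPM in the 3 controls, against 717, 765 and 1221 CPM in RARdn 1 to 3, so that RARdn 3 was the highest library and RARdn 1 the lowest. Of 19 genes of granule exocytosis, 0 were called (3 at an unadjusted p under 0.05, 1 by DESeq2, Copa, and 0 by limma-voom), and of 34 genes of the endoplasmic reticulum, 0 were called (4 at an unadjusted p under 0.05, 1 by DESeq2, Sec61g, and 0 by limma-voom). Exocytosis genes summed to 2747, 4306 and 4599.7 CPM in RARdn 1, 2 and 3 (controls 4084 to 4303), and endoplasmic reticulum genes to 16123, 15570.5 and 20357 CPM (controls 19209 to 21887). Without RARdn 1, Vipr1 (log2 0.71, adjusted p = 0.0469) and Kdelr3 (log2 0.57, adjusted p = 0.0455) rose in edgeR, beside 1.66% of all genes. The sum of the exocytosis list was low in RARdn 1, and that of the endoplasmic reticulum list in RARdn 1 and 2. Pdia2, the most abundant exocytosis gene listed, weighed heavily in its sum, at 1955 to 2036 CPM in controls and 1053 CPM in RARdn 1. The exocytosis genes did not move as one. In RARdn 1 and RARdn 2 alike, Vamp8 and Rab3d were below every control, whereas Vamp2, Stx2, Stx4a and Snap23 were above every control. In RARdn 3, Vamp8, Vamp2, Stx2 and Stx4a were below every control, and Rab3d and Snap23 lay within the control range.

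Of 32 tested genes in a list of other acinar products and neighbours, 2 rose by edgeR (1.37% of all genes) and by limma-voom (1.42%), 6 were called by DESeq2 in either direction (10.2%), and none fell by edgeR. Without RARdn 1, 6 rose in edgeR (1.66% of all genes). Bcat1, the cytosolic branched-chain aminotransferase, was at 1.45, 0.984 and 1.15 CPM in the 3 controls, against 6.47, 7.42 and 6.33 CPM in RARdn 1 to 3 (log2 fold change 2.48, SE 0.24, adjusted p = 0.00378). 1810009J06Rik was at 0.441, 0.402 and 0.226 CPM in the 3 controls, against 1.84, 2.52 and 2.72 CPM in RARdn 1 to 3 (log2 fold change 2.74, SE 0.40, adjusted p = 0.0143). Both were scarce RNAs whose 3 RARdn values, RARdn 1 included, were all above the controls. The list as a whole summed to 6734, 14775 and 18855 CPM in RARdn 1, 2 and 3 and 12871 to 13711 CPM in controls, so that RARdn 1 was below the controls and RARdn 2 and 3 above them, as for the enzymes.

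**Figure D5:**
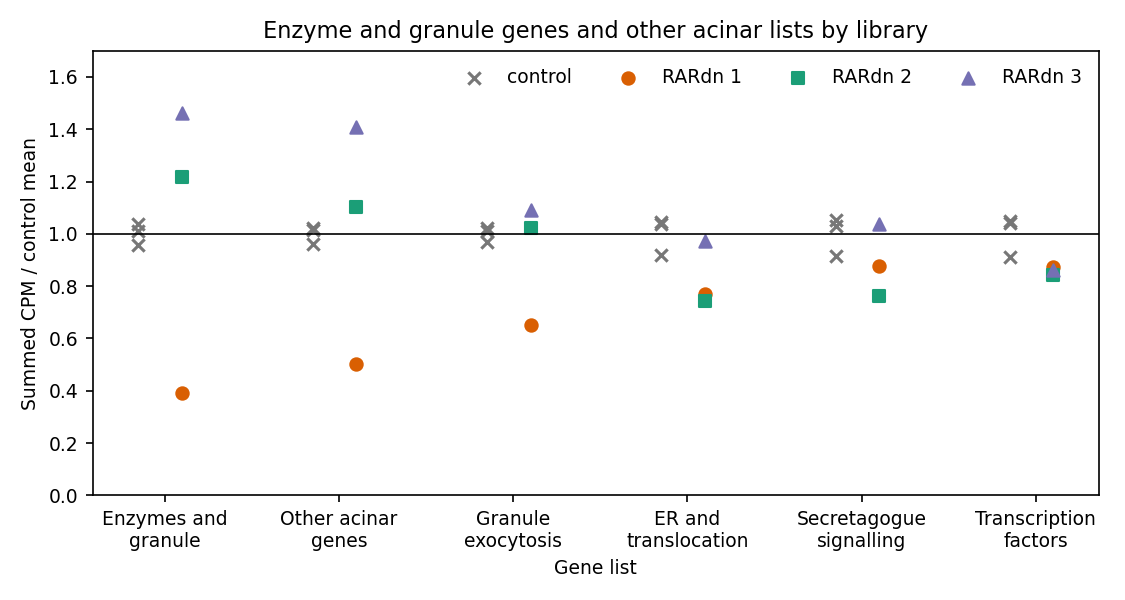
Summed CPM of the enzyme and granule genes and of 5 other acinar gene lists in each library, divided by the control mean (1 point per library). The enzyme and granule genes and the other acinar products are low in RARdn 1 and high in RARdn 2 and 3, and the sums of the 11 transcription factors lie close together in the RARdn libraries, at 2728 to 2832 CPM before TMM scaling.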

How the data were processed

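Whole embryonic pancreas RNA came from an RNeasy Mini kit extraction and was sequenced after standard Illumina library preparation, per the labels' protocols. The deposited values are raw read counts per gene symbol, 1 table per library, with 5 summary lines left out of the library sizes and of every test. The submitters' processing notes name cutadapt, FastQC, HTSeq, HISAT2, DESeq2 and bedtools, and the builds mm10 and GRCm38. Their versions, the annotation and the strand setting were not given in the sources used here. Totals ran from 35256531 to 52015498 counts in genes per library, so counting error is small beside the spread between libraries except for scarce genes.

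From these counts, CPM was computed on each library's total over all symbols. The main test was edgeR 4.0.16 run in R 4.3.3 (filterByExpr by group, TMM scaling, glmQLFit and glmQLFTest, 2-sided, genotype as the only term). Benjamini-Hochberg adjustment was over all 19070 genes tested, with calls at an adjusted p under 0.05. Every adjusted p of a single gene over all 6 libraries comes from this test. Those given without RARdn 1 come from a separate fit of the same kind, adjusted over the 19736 genes tested there. The standard errors (SE) were worked back from the F statistic. The tests use TMM-scaled libraries, with factors of 1.22 for RARdn 1 and 0.862 for RARdn 3, and the printed CPM does not. Shares were compared with 2-sided exact permutation tests over the 6 libraries, and Benjamini-Hochberg adjustment was over the 9 shares tested. DESeq2 1.42.0 and limma-voom (limma 3.58.1) were alternatives, beside other scalings and filters, a replicate block, an Xist term and each library left out. The genes and the 18 lists, of whose 267 entries 255 were in the tables, were chosen with earlier results of these data known. Fold changes and tests are printed for the gene with the highest mean CPM in each of the 12 roles, and for genes called in any setting, the latter a rule added after their values were seen. Gene positions and exon lengths came from GENCODE M21 and promoters from RefSeq (GRCm38.p6). In the labels' descriptions, a shared leading number marks RARdn 2 and RARdn 3 but not RARdn 1, with no word on its meaning. The calculations were tested on simulated data.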

Additional observations from a re-analysis of the deposited data

Results flagged for a closer look

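Reads that aligned to more than 1 place, which enter no gene count, made up 12.1%, 11.6% and 12.5% of all reads across controls 1 to 3, against 11.1%, 14.6% and 15.9% across RARdn 1 to 3. The RARdn mean of 13.9% was above the control mean of 12.1% ± 0.434 (SD, n = 3), with overlapping groups (2-sided exact permutation p = 0.4). Reads in more than 1 gene were lower without overlap, at 4.87% to 4.98% in RARdn and 5.38% to 5.49% in controls. The 2 libraries with the highest shares, RARdn 2 and RARdn 3, were also those with the most counts in the enzyme and granule genes, of which 13 of 36 share 50-base windows with other genes. The part of these reads in the enzyme results was not tested.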

How the results depend on the processing

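The 767 genes called over all genes by the test described above became 474 without TMM scaling, 173 with libraries scaled to the enzyme and granule sum, 2346 with no filter on low counts, 217 with a filter of 1 CPM in 3 libraries, 1946 with DESeq2 and 55 with a term for Xist, which stood in for sex. Leaving out each library in turn gave 100 to 2980 genes. Of the enzyme and granule genes, 0 were called in the test, 2 with no filter, and 0 to 12 with a library left out, the 12 without RARdn 1. The median log2 fold change of all genes was 0.00051, and scaling to the enzyme and granule sum moved it to 0.60, which left 22 of the 35 genes above 0 and 13 below. Of the 35, 17 were above 0 and 18 below with limma-voom, and 18 above and 17 below with a replicate block. The same split of 18 and 17 was found without RARdn 2, and 19 and 16 without RARdn 3. Only the genes with a printed fold change were followed singly through every setting. Among these, fold changes that changed sign lay between -0.53 and 0.27 on the log2 scale for Prss1 with a library left out, -0.68 and 0.34 for Ctrb1, -0.86 and 0.14 for Cpa1, -1.0 and 0.27 for Klk1, -0.54 and 0.37 for Pnliprp1, -0.56 and 0.21 for Erp27, and -0.16 and 0.87 for Sycn. Each turned without RARdn 1 except that of Sycn, which turned without RARdn 2, and with limma-voom Dmbt1 turned to -0.042. Outside these genes, Cela3a also turned without RARdn 1, from -0.30 to 0.19, and Pnlip from -0.042 to 0.345. The difference in share of counts, RARdn minus control, ran from -3.61 to 6.21 percentage points for all 36 genes with a library left out, from -2.45 to 3.25 for proteases and from -1.41 to 2.12 for lipases, and the lipase share within the 36 genes from -1.29 to 1.13. With Ctrb1 left out, an alternative chosen after seeing the data, the difference in protease share of counts turned from -0.071 to 0.762, that of proteases within the genes from -2.33 to 1.52 and that of lipases within the genes from 0.214 to -4.05. No other alternative turned these shares, and the amylase and nuclease shares stayed above 0 in every setting run. The causes were not tested. A replicate block gave 817 genes called and 0 of the enzyme and granule genes. The deviations of same-numbered libraries from their group means correlated at 0.0129, -0.0135 and 0.126, and those of differently numbered libraries at -0.0888 to 0.0920. This check cannot tell whether same-numbered embryos were littermates or handled together. The main test did not pair the libraries. Depth limits Reg2, with 0 to 2 counts per library.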
